A study of Mus musculus with 2 samples.

Results

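Cholesterol efflux and lipid handling were described through 10 listed genes, all of which are among the 31053 features of both count matrices. They were read in macrophage, fibroblast and endothelial barcodes, which were told apart by unique molecular identifiers (UMIs) of marker genes that do not include the 10. Cells came from hearts of C57BL/6 mice of wild-type genotype, 10 weeks old, after transverse aortic constriction (TAC), which narrows the aorta and loads the left ventricle with pressure, or after a sham operation without constriction. Each condition is 1 library of CD45+ cells from 6 mice, pooled so that animals cannot be told apart, and the labels used here do not give the time after surgery. With 1 library per condition the TAC and sham values have no replicate check, so the library and the operation cannot be told apart and every interval below is a 95% interval of counting error alone.

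Macrophages take up lipid from lipoproteins and dead cells and return cholesterol through the membrane pumps Abca1 and Abcg1 to acceptors that carry apolipoproteins such as Apoe. Cholesterol derivatives switch these genes on through the liver X receptors (LXR), of which Nr1h3 encodes LXR alpha, while Pparg encodes a fatty acid sensor that controls fat uptake genes. The heart burns mainly fatty acids, which lipoprotein lipase (Lpl) frees from triglyceride-rich particles while it is held on capillary endothelium by Gpihbp1, and which Cd36 and Fabp4 carry into and through endothelial cells. Pltp moves phospholipid between lipoproteins.

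The upstream sequence of Abca1 is shown because Abca1 was the member with the lowest TAC level relative to sham in macrophages, and those of Pltp and Apoe because they were the other members lower there. Each is the 250 bases before the transcription start from RefSeq (GRCm38.p6), 5′ to 3′ on the strand of the gene, with capitals for a match to an LXR-type repeat and lower case elsewhere. The windows lie on the minus strand at chr4:53159896-53160145 (Abca1), chr2:164857709-164857958 (Pltp) and chr7:19699189-19699438 (Apoe).
Abca1: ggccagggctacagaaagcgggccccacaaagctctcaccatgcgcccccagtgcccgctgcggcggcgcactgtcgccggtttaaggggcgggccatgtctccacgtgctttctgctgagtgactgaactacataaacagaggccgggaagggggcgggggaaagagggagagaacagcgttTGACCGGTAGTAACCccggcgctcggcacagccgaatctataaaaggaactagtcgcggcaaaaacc
Pltp: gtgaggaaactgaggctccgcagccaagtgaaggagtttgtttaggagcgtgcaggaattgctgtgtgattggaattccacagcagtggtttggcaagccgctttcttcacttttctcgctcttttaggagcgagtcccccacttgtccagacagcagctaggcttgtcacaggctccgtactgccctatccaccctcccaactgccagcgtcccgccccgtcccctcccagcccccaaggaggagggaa
Apoe: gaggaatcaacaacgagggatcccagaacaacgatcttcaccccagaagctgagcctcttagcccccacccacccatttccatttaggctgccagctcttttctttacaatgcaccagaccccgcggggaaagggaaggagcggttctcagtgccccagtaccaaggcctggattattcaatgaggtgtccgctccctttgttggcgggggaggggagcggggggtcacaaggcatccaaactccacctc
The letters searched on both strands were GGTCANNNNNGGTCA (called DR4), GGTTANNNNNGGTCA (DR4 variant, picked because the Abca1 element is known to have this form) and GGTCANNGGTCA (DR1, the form bound by PPAR receptors). The DR4 variant was present once, in the Abca1 window, where its letters lie on the opposite strand and the match begins at -67 from the start. Among 32851 RefSeq windows of that length, 0.046% held the DR4 variant, 0.064% held DR4 and 0.16% held DR1. Of the 10 members 6 had an entry (Abca1, Apoe, Pltp, Nr1h3, Pparg and Cd36) with 11 windows, and the other 10 windows held none of these letters.

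The deposited matrices hold raw UMI counts, with 97983083 UMIs in 7975 TAC barcodes and 87532984 UMIs in 11941 sham barcodes. A floor of 300 genes and a mitochondrial limit of 10% kept 5601 TAC barcodes (70.2%) and 4169 sham barcodes (34.9%). Kept barcodes had a median of 13892 UMIs and 4.42% mitochondrial UMIs in TAC, against 9536 UMIs and 8.02% in sham, so depth and mitochondrial content moved with the condition. Endothelial barcodes went the other way in depth, with a median of 5725 UMIs in TAC and 7481.5 in sham. Of all barcodes, 35 sequences occurred in both libraries, 7 of them kept. The rule gave 2808 TAC and 3035 sham macrophage barcodes, 219 TAC and 182 sham fibroblast barcodes, and 335 TAC and 56 sham endothelial barcodes. Class totals were 45552269 UMIs in TAC and 31657858 in sham macrophages, 3611051 in TAC and 1630639 in sham fibroblasts, and 2423024 in TAC and 443492 in sham endothelial barcodes. All 10 macrophage, all 10 fibroblast and all 10 endothelial markers were detected in their own class in both libraries. Ptprc, the gene of CD45, had a UMI in 96.1% of TAC and 91.7% of sham macrophage barcodes, but in 9.59% of TAC and 6.59% of sham fibroblast barcodes and in 9.25% of TAC and 8.93% of sham endothelial barcodes. Fibroblasts and endothelial cells do not carry CD45, so those barcodes passed a sort meant to remove them and their number is not a measure of their abundance in the heart.

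Levels are given as CPM, the UMIs of a gene summed over a class and scaled to a common class total of 1e+06, and a member was called higher or lower when TAC and sham differed by at least 1.5-fold and its UMIs in the 2 libraries summed to 20 or more. In macrophages all 10 members reached that minimum, and 3 were higher in TAC (Abcg1, Nr1h3, Pparg), where 13.5% of all 13024 measured genes were higher. Another 3 were lower in TAC (Abca1, Apoe, Pltp), against 23.1% of all measured genes, and the median log2 ratio was -0.15 over the members and -0.10 over all genes. In fibroblasts 7 members reached the minimum, with 1 higher (Cd36, background 10.8%) and 2 lower (Apoe, Lpl, background 17.7%), and a median of -0.31 against -0.08 over all genes. In endothelial barcodes 9 members reached it, with 4 higher (Abcg1, Pparg, Lpl, Gpihbp1, background 19%) and 1 lower (Apoe, background 17.1%), and a median of 0.21 against 0.00.

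**Figure D1:**
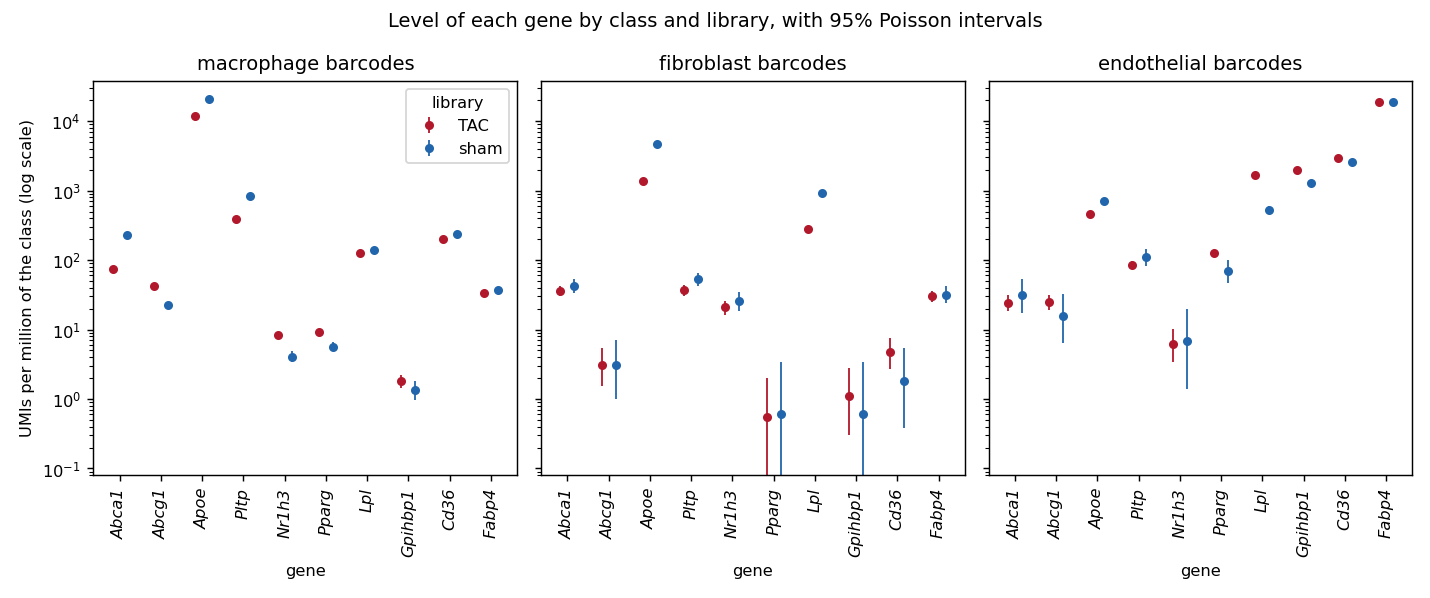
Level of each member in CPM (log axis) in macrophage, fibroblast and endothelial barcodes, TAC in red to the left of sham in blue, with exact Poisson intervals; 1 library per condition. Lpl stood at 1672 CPM in TAC and 532 CPM in sham endothelial barcodes, and at 281 CPM in TAC and 924 CPM in sham fibroblast barcodes.

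The 2 efflux pumps differed between the libraries in opposite directions in macrophages. Abca1 (chr4:53030787-53159895, minus strand), which loads cholesterol and phospholipid onto lipid-poor apolipoprotein, had 3335 UMIs or 73.2 CPM (70.7 to 75.7) in TAC macrophages, against 7381 UMIs or 233 CPM (228 to 239) in sham macrophages. That is 3.18-fold lower in TAC (3.06 to 3.32), and it stayed past 1.5-fold under all 13 alternatives, at log2 -1.74 to -1.22. Abcg1 (chr17:31057675-31117988, plus strand), which moves sterol to mature high-density lipoprotein, had 1944 UMIs or 42.7 CPM in TAC macrophages, against 719 UMIs or 22.7 CPM in sham macrophages, a ratio of 1.88 (1.72 to 2.05). Its call ended under 1 alternative, a mitochondrial limit of 5%, which left 1653 TAC and 57 sham macrophage barcodes and gave log2 -0.03. Per UMI of Abcg1 there were 1.72 UMIs of Abca1 (1.62 to 1.82) in TAC macrophages and 10.3 (9.51 to 11.1) in sham macrophages.

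Both pumps were highest in macrophages among the 3 classes in both libraries, though the Abcg1 intervals of sham macrophages and sham endothelial barcodes overlapped. In fibroblasts Abca1 was at 36.3 CPM in TAC and 42.9 CPM in sham, and in endothelial barcodes at 24.3 CPM in TAC and 31.6 CPM in sham, with ratio intervals that include 1 in both classes. Abcg1 in endothelial barcodes was at 24.8 CPM in TAC and 15.8 CPM in sham on 60 TAC and 7 sham UMIs, a ratio of 1.57 (0.716 to 4.07), which counting error alone does not separate from 1. That call held in 9 of 12 alternatives and turned to log2 -0.33 with a mitochondrial limit of 5%. In fibroblasts Abcg1 had 11 TAC and 5 sham UMIs, under the minimum.

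Depth was set equal by thinning each barcode to 1000 UMIs. Abca1 then had a UMI in 7.66% of TAC macrophages (6.70 to 8.70, Clopper-Pearson) and 20.8% of sham macrophages (19.4 to 22.3), and Abcg1 in 3.60% of TAC (2.94 to 4.35) and 2.11% of sham (1.63 to 2.69). Without thinning the shares were 50.8% in TAC and 77.3% in sham for Abca1, and 36.5% in TAC and 16.9% in sham for Abcg1. In neutrophil barcodes, which served as a background, thinned Abca1 was found in 2.01% of 747 in TAC and in 0 of 17 in sham, where a limit of 3 counts allows a share of up to 17.6%. Thinned to 2000 UMIs, Abca1 was in 4 of 13 sham T barcodes (9.09 to 61.4%) and in 35.8% of sham macrophages. T barcodes held 8.20 CPM of Abca1 in TAC and, on 9 UMIs, 54.9 CPM (25.1 to 104) in sham. That sham interval overlaps those of sham fibroblasts (33.5 to 54.2) and sham endothelial barcodes (17.3 to 53.0). Thinned Abcg1 was found in 2.95% of TAC neutrophils, an interval (1.85 to 4.43) that overlaps that of TAC macrophages. By level, TAC Abcg1 was at 42.7 CPM (40.8 to 44.6) in macrophages and 23.4 CPM (19.7 to 27.6) in neutrophils. In TAC T barcodes it was at 7.52 CPM (3.75 to 13.5). The sham neutrophil and T classes had 2 Abcg1 UMIs each. Whether neutrophils make Abcg1 RNA themselves was not tested. Median depth was 4736 UMIs in TAC and 3308 UMIs in sham neutrophil barcodes.

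The macrophage class was made up differently in the 2 libraries. Barcodes with under 20 resident marker UMIs per 10000 (Lyve1, Folr2, Timd4, Cd163, F13a1 and Cbr2) and at least 100 of class II markers (antigen presentation genes) made up 57.1% of TAC macrophages (1604 barcodes) and 516 of the 3035 sham macrophages. Barcodes with at least 20 and under 100 made up 13.6% of TAC and 44.5% of sham macrophages. Abca1 was lower in TAC in all 4 divisions, with ratios between 0.382 and 0.488, and Abcg1 was at least 1.5-fold higher in 3 of 4. The division in which Abcg1 fell short of 1.5-fold, at a ratio of 1.33 (1.12 to 1.59), was the resident-low, class II-high one that held most TAC macrophages. Resident-high, class II-low barcodes had 135 CPM of Abca1 in TAC and 276 CPM in sham, and resident-low, class II-high barcodes had 49.9 CPM in TAC and 131 CPM in sham. With the divisions weighted alike Abca1 was at log2 -1.22.

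**Figure D2:**
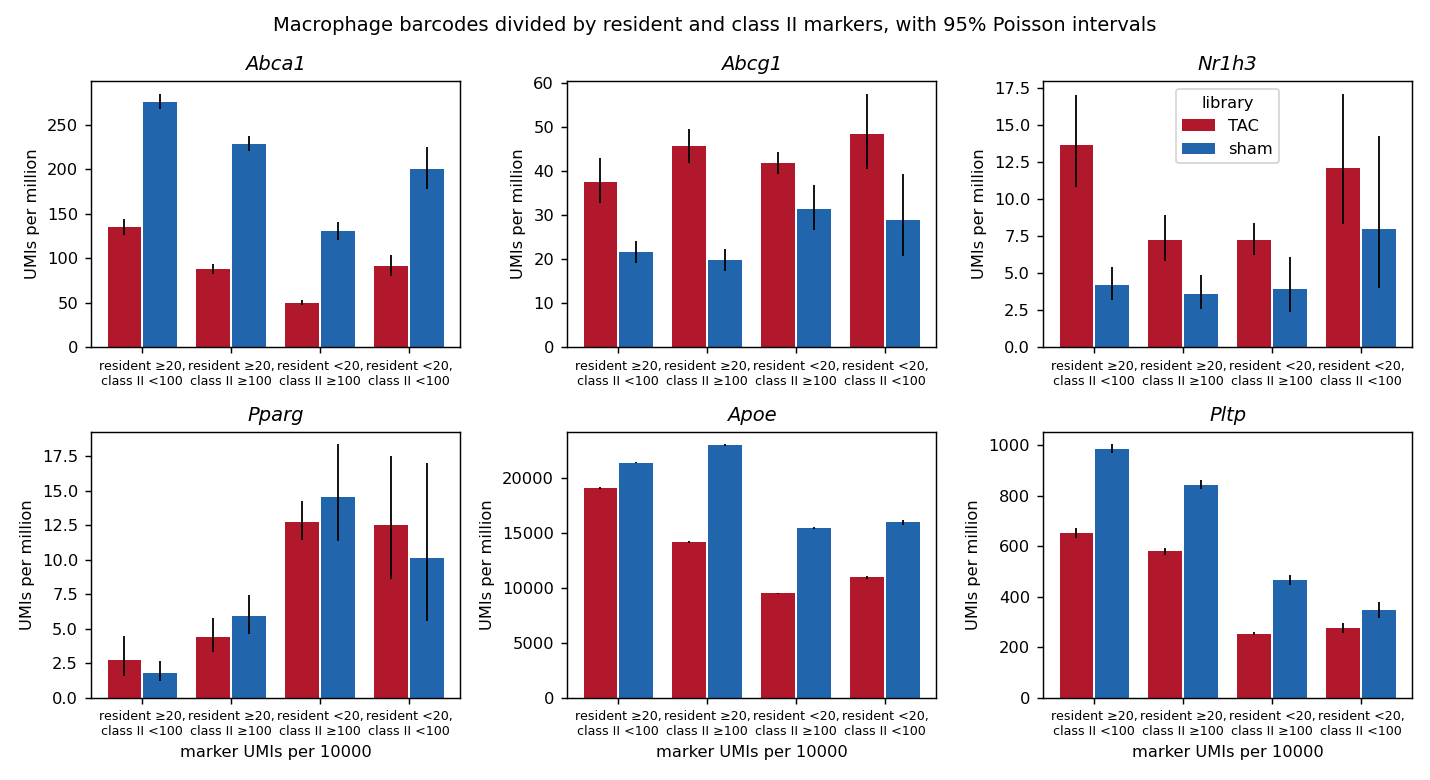
Levels in CPM of 6 members in macrophage barcodes divided by resident and class II marker UMIs per 10000, TAC in red left of sham in blue, with exact Poisson intervals. At 1.5-fold or more, Abca1 was lower in TAC in 4 of 4 divisions and Pltp in 2 of 4, and Nr1h3 was higher in 4 of 4 (in 1 of them with a ratio interval of 0.747 to 3.35) and Abcg1 in 3 of 4, while Pparg differed more between divisions than between libraries.

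Apoe and Pltp, whose products carry and remodel lipid outside the cell, were both lower in TAC macrophages. Apoe (chr7:19696109-19699188, minus strand) was at 12031 CPM in TAC and 20813 CPM in sham macrophages, 1.73-fold lower in TAC (1.72 to 1.74). Per barcode, the median was 98.8 Apoe UMIs per 10000 in TAC macrophages and 204 in sham macrophages, and 10% of barcodes lay below 15.9 in TAC and below 59.7 in sham. The 4 divisions gave Apoe ratios of 0.616 to 0.891. With the divisions weighted alike the log2 value was -0.50, short of 1.5-fold, and with a mitochondrial limit of 5% it was -0.03.

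Pltp (chr2:164839518-164857711, minus strand) was at 392 CPM in TAC and 827 CPM in sham macrophages, 2.11-fold lower in TAC (2.07 to 2.15). Under the 13 alternatives its log2 value ran between -1.21 and -0.63, past 1.5-fold in each. Thinned to 1000 UMIs, 28.1% of TAC and 50.9% of sham macrophages had a Pltp UMI, against 2.01% of TAC neutrophils. Within the divisions the Pltp ratio was 0.543 to 0.790, nearer to 1 than the pooled 0.474, and past 1.5-fold in 2 of 4. Pltp overlaps Ctsa on the other strand, and the strand setting of the counting was not given in the sources used here, so reads of the pair cannot be told apart with certainty. Ctsa itself was at 308 CPM in TAC and 327 CPM in sham macrophages. In the other classes Pltp was short of 1.5-fold, at 36.6 CPM in TAC and 52.7 CPM in sham fibroblasts and 84.6 CPM in TAC and 110.5 CPM in sham endothelial barcodes. The fibroblast value moved to log2 -1.56 with no limits on other classes, to 0.53 with thinning, and to 1.60 with a mitochondrial limit of 5%, which left 8 sham barcodes. Neutrophil barcodes held 17.4 CPM of Pltp in TAC and, on 5 UMIs, 63.0 CPM (20.5 to 147) in sham. T barcodes held 18.5 CPM in TAC and, on 45 UMIs, 275 CPM (200 to 367) in sham. The sham fibroblast (42.2 to 65.1) and endothelial (81.7 to 146) intervals overlapped that of sham neutrophils and lay below that of sham T barcodes. The part of free RNA in these Pltp values was not tested.

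Outside macrophages Apoe was set beside its level in barcodes of types that do not make much of it. Neutrophil barcodes carried 689 CPM of Apoe in TAC and 3631 CPM in sham, and T barcodes 584 CPM in TAC and 3679 CPM in sham, on 17 and 13 sham barcodes only. Endothelial Apoe, at 459 CPM in TAC and 708 CPM in sham, was below both in each library, and the part of free RNA in its 1.54-fold lower level in TAC was not tested. Fibroblast Apoe was at 1394 CPM in TAC and 4744 CPM in sham, 3.40-fold lower in TAC (3.28 to 3.53). Per UMI of the macrophage marker list, fibroblasts held 5.02 Apoe UMIs in TAC and 16.4 in sham, against 0.530 in TAC and 1.07 in sham macrophages and 0.711 in TAC and 2.60 in sham neutrophils. Thinned to 1000 UMIs, Apoe had a UMI in 56.2% of TAC and 65.7% of sham fibroblasts, against 38.3% of TAC neutrophils (34.8 to 41.9) and 64.7% of sham neutrophils (38.3 to 85.8). Thinned to 2000 UMIs, the shares were 64.4% of TAC (57.7 to 70.7) and 86.7% of sham fibroblasts (80.9 to 91.3), against 53.5% of TAC neutrophils (49.8 to 57.1) and 56.3% of sham neutrophils (29.9 to 80.2). The macrophage markers in fibroblast barcodes were alike in the libraries, at 2.78 per 10000 UMIs in TAC and 2.89 in sham. The part of free RNA in the fibroblast Apoe values was not tested either. The log2 value of fibroblast Apoe ran between -1.92 and -0.76 under the alternatives, and at -0.76, with both libraries held to 5 to 10% mitochondrial UMIs, 36 TAC and 174 sham barcodes were compared.

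The 2 nuclear receptor genes were measured at low levels in macrophages and both were above sham in TAC. Nr1h3 (chr2:91184061-91202834, minus strand) had 380 UMIs or 8.34 CPM in TAC macrophages, against 129 UMIs or 4.07 CPM in sham macrophages, a ratio of 2.05 (1.67 to 2.52). It was above sham in all 4 divisions, from 1.52 (0.747 to 3.35) to 3.29 (2.31 to 4.71), the highest being in resident-high, class II-low barcodes. The call ended when each barcode was thinned to 1000 UMIs, where 11 barcodes of each library had an Nr1h3 UMI (log2 0.11), and when both libraries were held to 5 to 10% mitochondrial UMIs (log2 0.35). In fibroblasts, the class with the highest Nr1h3 level in both libraries, it was at 20.8 CPM in TAC and 25.8 CPM in sham, with a ratio interval that includes 1 and, in sham, a level interval that overlaps the endothelial one. Endothelial barcodes had 15 TAC and 3 sham UMIs of Nr1h3, under the minimum.

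Pparg (chr6:115360951-115490399, plus strand) had 422 UMIs or 9.26 CPM in TAC macrophages, against 179 UMIs or 5.65 CPM in sham macrophages, a ratio of 1.64 (1.37 to 1.96). Its level followed the divisions more than the library. Resident-low, class II-high barcodes had 12.8 CPM in TAC and 14.6 CPM in sham, while resident-high, class II-low barcodes had 2.73 CPM in TAC and 1.82 CPM in sham. With the 4 divisions weighted alike the log2 value turned to -0.13. With a mitochondrial limit of 5% it turned to -0.81, on 12 sham Pparg UMIs in 57 sham barcodes. With both libraries held to 5 to 10% mitochondrial UMIs the ratio stayed at 1.56 (1.22 to 1.98). The part of class make-up in the pooled difference was not tested. In endothelial barcodes Pparg was at 125 CPM in TAC and 69.9 CPM in sham, a ratio of 1.78 (1.23 to 2.67) on 302 TAC and 31 sham UMIs. The endothelial call ended with thinning, at log2 0.31. Fibroblasts had 2 TAC UMIs and 1 sham UMI of Pparg, under the minimum. A predicted antisense gene, Gm44079, overlaps Pparg, and its reads cannot be told apart from those of Pparg without strand. On the same strand, Nr1h3 overlaps the processed transcript Gm13783 and Abcg1 overlaps the rRNA gene Gm25447. Neither is among the counted features, and strand alone would not separate reads of these pairs.

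Lpl (chr8:68880491-68907448, plus strand), the lipase itself, was higher in TAC endothelial barcodes and lower in TAC fibroblast barcodes than in sham, and near the sham level in macrophages. In endothelial barcodes it had 4051 UMIs or 1672 CPM (1621 to 1724) in TAC, against 236 UMIs or 532 CPM (466 to 605) in sham, a ratio of 3.14 (2.75 to 3.60). In fibroblasts it had 1013 UMIs or 281 CPM (264 to 298) in TAC, against 1506 UMIs or 924 CPM (878 to 971) in sham, which is 3.29-fold lower in TAC (3.04 to 3.57). In macrophages it was at 126 CPM in TAC and 139 CPM in sham, a ratio of 0.906 (0.871 to 0.942). That value moved to log2 -1.60 with a mitochondrial limit of 5% and 57 sham barcodes. Within the 4 macrophage divisions the Lpl ratio was 0.625 to 0.875, below the pooled value in each, and lower past 1.5-fold in 1 of 4. The order of the classes therefore differed, with endothelial over fibroblast over macrophage in TAC and fibroblast over endothelial over macrophage in sham, and no intervals of neighbours overlapped.

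With each barcode thinned to 1000 UMIs, Lpl had a UMI in 66.3% of TAC (60.9 to 71.3) and 33.9% of sham (21.8 to 47.8) endothelial barcodes. In fibroblasts the share was 22.8% in TAC (17.4 to 29.0) and 54.7% in sham (47.1 to 62.1). The background was low in TAC, at 0.937% of neutrophil barcodes and 0 of 111 T barcodes. In sham it was loosely bounded, at 0 of 17 neutrophil barcodes, where a limit of 3 counts allows up to 17.6%. In 1 of 13 sham T barcodes there was a UMI, and that interval (0.195 to 36.0) overlaps the sham endothelial one. Without thinning, 1 of 13 sham T barcodes held all 35 Lpl UMIs of that class, or 214 CPM (149 to 297). Without thinning 88.7% of TAC and 80.4% of sham endothelial barcodes had a UMI, and 81.3% of TAC and 92.9% of sham fibroblast barcodes. The median endothelial barcode carried 13.8 Lpl UMIs per 10000 in TAC and 4.04 in sham, and the median fibroblast barcode 1.95 in TAC and 8.20 in sham. Both differences were thus seen in the typical barcode and not in a few with very high counts.

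**Figure D3:**
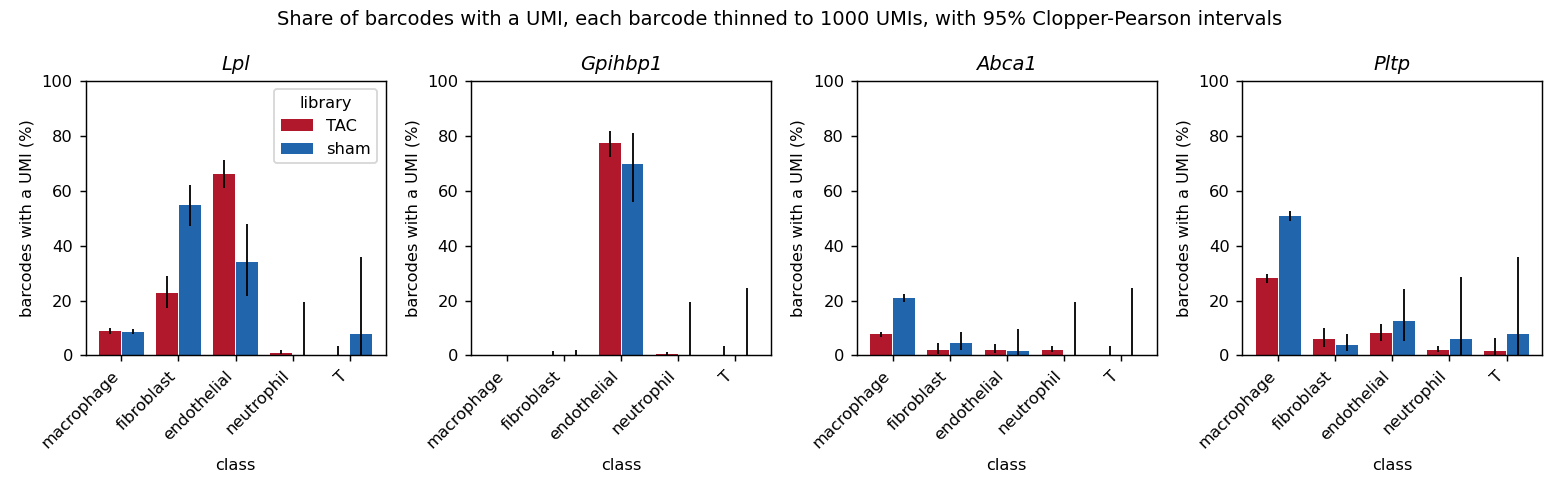
Share of barcodes (%) with a UMI of Lpl, Gpihbp1, Abca1 and Pltp after thinning each barcode to 1000 UMIs, in 5 classes, TAC in red left of sham in blue, with Clopper-Pearson intervals. Lpl was in 66.3% of TAC and 33.9% of sham endothelial barcodes and in 22.8% of TAC and 54.7% of sham fibroblast barcodes; the sham neutrophil and T classes hold 17 and 13 barcodes.

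The sham endothelial class is small, since 47.2% of sham barcodes that passed the endothelial threshold carried other classes' markers above the limits, against 14.8% in TAC. With no such limits the log2 value of endothelial Lpl was 1.79 on 393 TAC and 106 sham barcodes. Among endothelial barcodes with 10 to 25% mitochondrial UMIs, which the filter had left out and which hold 87 TAC and 371 sham barcodes, Lpl was at 1584 CPM in TAC and 680 CPM in sham, a ratio of 2.33 (2.05 to 2.65). Barcodes with at least 20 capillary marker UMIs per 10000 were 80.0% of the TAC and 67.9% of the sham class. In them Lpl was at 1996 CPM in TAC and 627 CPM in sham, a ratio of 3.18 (2.74 to 3.71), and in the other endothelial barcodes at 656 CPM in TAC and 349 CPM in sham, a ratio of 1.88 (1.41 to 2.55). Cardiomyocytes, which make much of the lipase of the heart, were followed by 10 markers, whose sum was 7.30 per 10000 in TAC and 10.1 in sham endothelial barcodes, 0.366 in TAC and 1.28 in sham fibroblast barcodes. The part of cardiomyocyte RNA in the Lpl values was not tested. Of 8 adipocyte markers, 6 in TAC and 7 in sham endothelial barcodes were at 0, as were 7 in fibroblast barcodes of each library, and Adipoq and Plin1 were among those at 0 in every case.

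In fibroblasts the lower Lpl level came with a changed make-up. Barcodes with at least 5 UMIs per 10000 of activation markers (Postn, Cthrc1, Comp, Fmod and Cilp) were 59.4% of TAC and 14.3% of sham fibroblasts. Lpl was at 163 CPM in TAC and 271 CPM in sham among these, a ratio of 0.602 (0.467 to 0.787). Among the other fibroblasts it was at 527 CPM in TAC and 1048 CPM in sham, a ratio of 0.503 (0.457 to 0.553). Within either library the level was lower in activated than in other fibroblasts, and within either division it was lower in TAC. With both divisions weighted alike the log2 value was -0.95, against -1.72 for the pooled class.

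**Figure D4:**
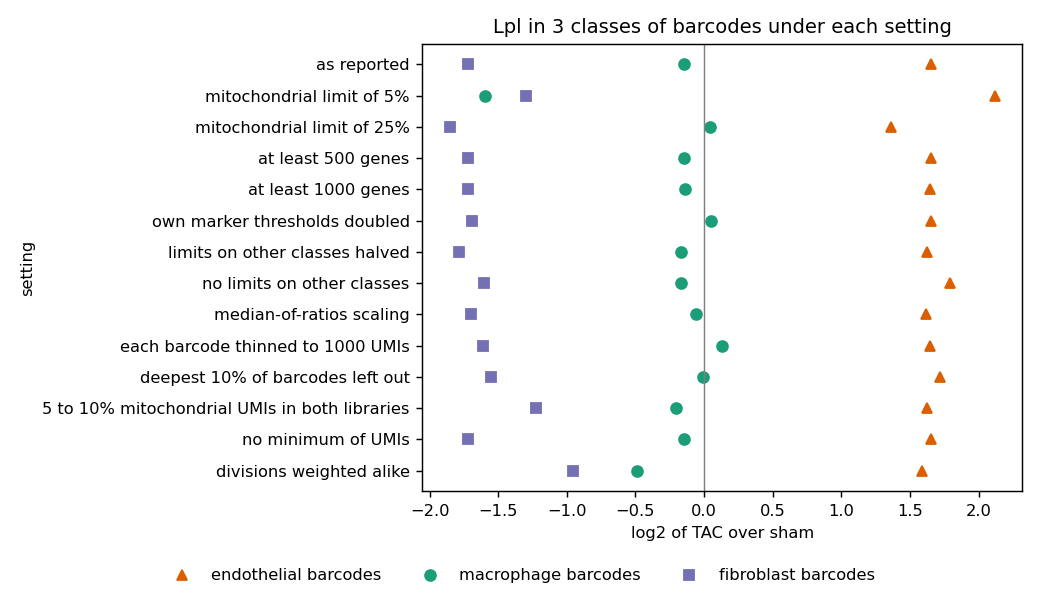
Log2 of TAC over sham for Lpl in endothelial (triangles), macrophage (circles) and fibroblast barcodes (squares), as reported and under 13 alternatives; the line marks equal levels. All endothelial values lay between 1.36 and 2.12 and all fibroblast values between -1.85 and -0.95, while macrophage values lay on both sides of 0.

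Gpihbp1 (chr15:75596628-75599481, plus strand), the anchor that holds the lipase on capillaries, was an endothelial gene in these data, with 1988 CPM in TAC and 1299 CPM in sham endothelial barcodes. The ratio was 1.53 (1.40 to 1.67), just past the threshold, and 5 of 13 alternatives put it below 1.5-fold (lowest log2 0.51), while the highest, 2.14, rested on 2 sham barcodes under a mitochondrial limit of 5%. In capillary-marked barcodes it was at 2345 CPM in TAC and 1525 CPM in sham, and in the other endothelial barcodes at 866 CPM in TAC and 864 CPM in sham. Macrophages held 1.80 CPM in TAC and 1.36 CPM in sham, and fibroblasts 4 TAC UMIs and 1 sham UMI. Per UMI of Gpihbp1, endothelial barcodes held 0.841 UMIs of Lpl (0.807 to 0.877) in TAC and 0.410 (0.351 to 0.478) in sham. At 2000 UMIs per barcode, Lpl was found in 86.2% of the 283 TAC endothelial barcodes with a Gpihbp1 UMI and in 57.8% of the 45 such sham barcodes. Over all endothelial barcodes at that depth the Lpl shares were near these, at 82.2% in TAC and 53.6% in sham. Without a Gpihbp1 UMI they were 54.8% in TAC and 36.4% in sham, the latter from 4 barcodes with Lpl and 7 without. Endothelial barcodes held 77.8% of all kept Gpihbp1 UMIs in TAC and 56.0% in sham, most of the rest being in barcodes assigned to no class.

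Among endothelial values, those of Cd36 and Fabp4, which move fatty acids, were the closest to equal levels. Endothelial Cd36 (chr5:17781690-17888801, minus strand) was at 2975 CPM in TAC and 2571 CPM in sham, a ratio of 1.16 (1.09 to 1.23). Endothelial Fabp4 (chr3:10204088-10208576, minus strand) was at 18774 CPM in TAC and 19006 CPM in sham, a ratio of 0.988 (0.965 to 1.01). Thinned to 1000 UMIs, 86.0% of TAC and 82.1% of sham endothelial barcodes had a Cd36 UMI, and 98.5% of TAC and 98.2% of sham had a Fabp4 UMI.

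In macrophages Cd36, there a scavenger receptor for modified lipoprotein, was at 199.5 CPM in TAC and 239 CPM in sham, a ratio of 0.835 (0.809 to 0.861). Among the divisions it was at 0.609 (0.568 to 0.652) in resident-high, class II-low barcodes and 1.21 (1.13 to 1.31) in resident-low, class II-high barcodes. Cd36 in fibroblasts was called higher on 17 TAC and 3 sham UMIs, with a ratio interval of 0.740 to 13.6. At 4.71 CPM in TAC it lay below TAC neutrophil barcodes (12.4 CPM). In sham it was at 1.84 CPM (0.379 to 5.38). Sham neutrophil barcodes were at 25.2 CPM on 2 UMIs, with an interval (3.05 to 91.1) that overlaps it. With no limits on other classes fibroblast Cd36 turned to log2 -1.02. The Fabp4 ratio within the 4 macrophage divisions was 0.590 to 0.766, against 0.895 in the pooled class, and past 1.5-fold in 2 of 4. Fabp4 in macrophages was at 33.6 CPM in TAC and 37.6 CPM in sham and in fibroblasts at 29.9 CPM in TAC and 31.9 CPM in sham. Neutrophil barcodes were at 35.6 CPM in TAC and, on 1 UMI, 12.6 CPM (0.319 to 70.2) in sham, and T barcodes at 30.1 CPM in TAC and at 0 UMIs in sham, which allows up to 18.3 CPM. In TAC the macrophage (32.0 to 35.4) and fibroblast (24.5 to 36.1) intervals of Fabp4 thus overlapped that of neutrophils (31.0 to 40.8), which should lack it. The part of free RNA in these levels was not tested. Barcodes with under 300 genes, 535 in TAC and 1503 in sham, held 619 CPM of Fabp4 in TAC and 1095 CPM in sham. Whether their RNA stands for free RNA was not tested.

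**Figure D5:**
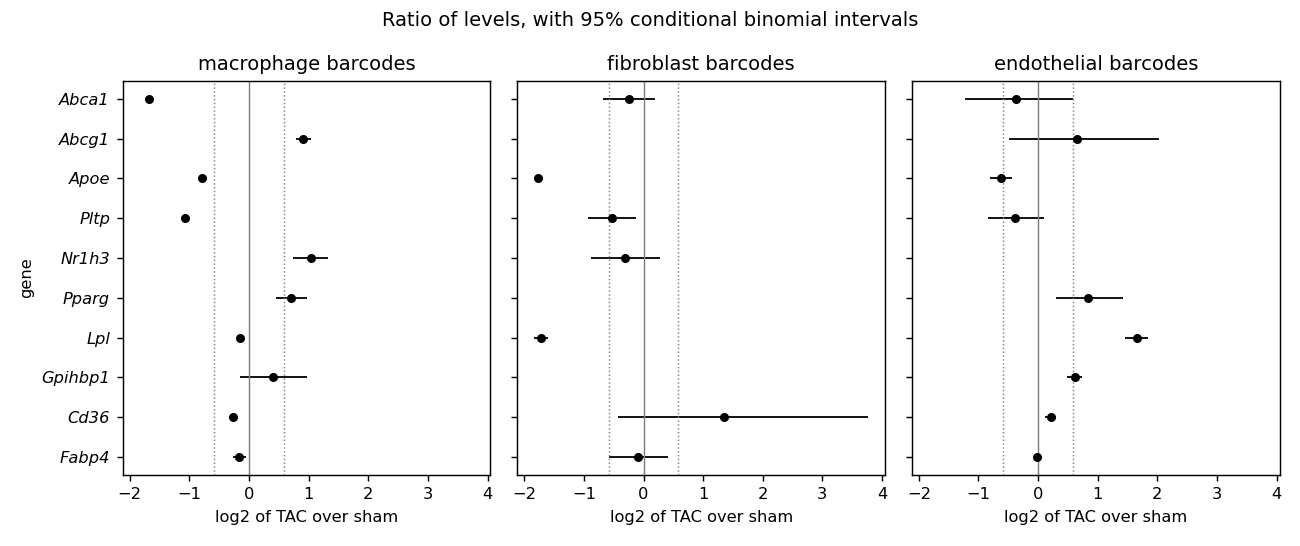
Log2 of TAC over sham for each member whose UMIs in the 2 libraries summed to 20 or more, with conditional binomial intervals; dotted lines mark 1.5-fold in either direction. Abca1 lay at -1.67 in macrophages, Lpl at -1.72 in fibroblasts and 1.65 in endothelial barcodes, and Fabp4 at -0.02 in endothelial barcodes.

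Markers of other cells that moved with the libraries were summed beside these values. In macrophage barcodes the 10 monocyte markers came to 12.3 per 10000 in TAC and 2.98 in sham, with 9 of 10 higher in TAC, and the 10 neutrophil markers to 4.13 in TAC and 1.14 in sham, with none at 0 in either library. In endothelial barcodes the class II markers came to 26.6 per 10000 in TAC and 8.09 in sham, and the neutrophil markers to 4.52 in TAC and 0.293 in sham, with 0 markers at 0 in TAC and 5 of 10 at 0 in sham. In fibroblast barcodes the neutrophil markers came to 2.97 in TAC and 0.288 in sham, with 1 of 10 at 0 in TAC and 6 of 10 at 0 in sham. Their part in the member values was not tested.

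Beyond the members, 8 lists of lipid genes were read in the same way, members left out. The lists share genes, so their counts are not separate. Angptl4 stands in the fatty acid and the lipase control list, and Apoc2 in the LXR and the lipase control list. The LXR list (20 measured in macrophages) had 3 genes higher and 6 lower in TAC, where 13.5% of all genes were higher and 23.1% lower, with a median log2 of -0.15, next to -0.10 over all genes. Among its lower genes Abca9, a transporter of the Abca1 family, was at 43.3 CPM in TAC and 159.6 CPM in sham macrophages, and Scd1, a fatty acid desaturase, at 0.724 CPM in TAC and 4.30 CPM in sham. Among its higher genes Cd5l, a secreted survival protein of macrophages, was at 3.62 CPM in TAC and 0.600 CPM in sham. Cholesterol synthesis genes under SREBP2, the factor that switches on synthesis and uptake when sterol is low, had 2 higher and 1 lower of 25 in macrophages, while 0 were higher and 9 lower of 23 in fibroblasts, and 1 was higher and 8 were lower of 17 in endothelial barcodes. Their median was -0.19 in macrophages, -0.43 in fibroblasts and -0.55 in endothelial barcodes, where medians over all genes were -0.10, -0.08 and 0.00. Over all genes 10.8% were higher and 17.7% lower in fibroblasts, and 19% higher and 17.1% lower in endothelial barcodes.

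The other macrophage lists stand beside the same shares over all genes, 13.5% higher and 23.1% lower. Oxysterol and sterol transport genes had 2 higher and 7 lower of 18. The 2 higher were Ch25h, the enzyme that makes 25-hydroxycholesterol, at 134 CPM in TAC and 14.8 CPM in sham (ratio 9.05, 8.24 to 9.96), and Tspo, a mitochondrial membrane protein that binds cholesterol, at 1007 CPM in TAC and 368 CPM in sham. Among the 16 lysosomal genes 2 were higher and 0 lower in macrophages, Npc2, which hands on lysosomal cholesterol, at 1151 CPM in TAC and 738 CPM in sham, and Ppt1, a lysosomal thioesterase, at 176 CPM in TAC and 89.2 CPM in sham. Storage genes had 3 higher and 1 lower of 13, with Hilpda, an inhibitor of triglyceride breakdown, at 60.2 CPM in TAC and 16.0 CPM in sham, and G0s2, with the same action, at 11.4 CPM in TAC and 3.29 CPM in sham. Receptors had 3 higher and 3 lower of 13, fatty acid genes 4 higher and 3 lower of 23, with Fabp5 at 126 CPM in TAC and 52.4 CPM in sham, and lipase control genes 3 higher and 1 lower of 10.

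In fibroblasts, where 10.8% of all genes were higher and 17.7% lower, the LXR list had 1 higher and 7 lower of 16, with the desaturase Scd2 at 29.9 CPM in TAC and 109 CPM in sham. Lipase control genes had 2 higher and 2 lower of 10. Angptl4, a secreted inhibitor of Lpl, was at 87.5 CPM in TAC and 9.81 CPM in sham fibroblasts, a ratio of 8.92 (5.41 to 15.8). Pcsk6, a protease that can cleave the lipase, was at 218 CPM in TAC and 600.4 CPM in sham, and G0s2 of the storage list (2 higher and 2 lower of 11) at 123 CPM in TAC and 451 CPM in sham. Receptors had 2 higher and 2 lower of 8, lysosomal genes 2 higher and 1 lower of 16, fatty acid genes 3 higher and 2 lower of 23, and oxysterol genes 4 higher and 4 lower of 17.

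In endothelial barcodes, where 19% of all genes were higher and 17.1% lower, the storage list had 5 higher and 1 lower of 11, with Lipe, hormone-sensitive lipase, at 199 CPM in TAC and 51.9 CPM in sham (ratio 3.84, 2.53 to 6.12). Fatty acid genes had 6 higher and 3 lower of 18, among them Angptl4 at 50.4 CPM in TAC and 15.8 CPM in sham (ratio 3.19, 1.502 to 8.10) and Fabp5, a second fatty acid carrier, at 838 CPM in TAC and 1484 CPM in sham. Lipase control genes had 1 higher and 1 lower of 8, the lower one being Meox2, a transcription factor of heart capillaries, at 92.0 CPM in TAC and 209.7 CPM in sham. Receptors had 0 higher and 3 lower of 6, with Scarb1, a receptor for high-density lipoprotein, at 71.4 CPM in TAC and 147 CPM in sham. LXR genes had 4 higher and 3 lower of 13, lysosomal genes 0 higher and 2 lower of 15, and oxysterol genes 2 higher and 1 lower of 12.

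Over the 6 sums of 3 classes and 2 libraries, which share barcodes' depth and library, the genes nearest to the members by Pearson's r of log2(CPM + 1) were found as a description. Abca1 was nearest to Selenop, Cltc and Chka (r of 0.990 to 0.993), and Selenop was at 914 CPM in TAC and 2970 CPM in sham macrophages. Lpl was nearest to Smpdl3a, Tnrc6c and Stx2 (0.976 to 0.982). Gpihbp1 was nearest to Sox17, Timp4 and Gata2, and Fabp4 to Slc26a10, Tie1 and Ptprr, each with r above 0.999 set by the endothelial sums. Apoe was nearest to Blnk, Tgfbi and Acp2, Abcg1 to Btg1, Clic1 and Cflar, Nr1h3 to Mmp14, Gtf2h5 and Mrps12, Pparg to Rbmxl1, Ppp1r11 and Nostrin, and Cd36 to Parvb, Pdgfb and Rac1.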

How the data were processed

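CD45+ heart cells of 1 TAC and 1 sham library were analysed. The authors deposited raw UMI counts per gene and barcode, made with Cell Ranger 3.0 on mm10 per the submitters' processing notes. The calling of cells among barcodes was not given in the sources used here, and several droplet runs described in the labels could not be separated. Each matrix holds 1 sample, with 0 columns of other samples.

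A kept barcode joined a class when its marker UMIs per 10000 reached a threshold (macrophage 75, fibroblast 50, endothelial 20, neutrophil 200, T 5) and markers of other classes stayed under limits (macrophage 50, fibroblast 10, endothelial 5, neutrophil 50, T 5, B 20, mural 20, cardiomyocyte 50, erythroid 50). The thresholds were set after the values were seen. No doublet caller was run, and the limits removed 21.2% of TAC and 11.8% of sham barcodes that passed the macrophage threshold. Counts were summed per class and library. Levels carry exact Poisson, ratios exact conditional binomial and shares Clopper-Pearson intervals at 95%, for counting error only. UMIs remove most amplification copies. A count of 0 allows up to 3 counts. Cells are not replicates, so no test was made.

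The members and the lists were chosen with earlier results of these data known. Named genes were the 10 members, the 2 highest and 2 lowest of each lipid list per class (of which the text gives a part), and the 3 genes most like each member among genes with at least 50 CPM in a sum (those of Pltp are not reported here). Alternatives varied the filters, thresholds, limits, scaling, depth, minimum of UMIs and weight of divisions, the last chosen after seeing the data. Interval and ratio code was tested on simulated data. Promoters came from RefSeq and positions from GENCODE vM21. The scripts ran in Python 3.11.15 with matplotlib 3.10.9, pandas 2.3.3, scipy 1.17.1 and numpy 2.4.6.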

Additional observations from a re-analysis of the deposited data

Results flagged for a closer look

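Lpl differed from sham in opposite directions in 2 classes, with a log2 value of -1.72 in fibroblast and 1.65 in endothelial barcodes. The difference between the classes was not tested, since each condition is 1 library.

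Kept barcodes assigned to no class, 1381 in TAC and 866 in sham, were in no class as reported above; those left out for other classes' markers enter the alternative without limits. In them Nr1h3 was 2.35-fold higher in TAC (7.02 CPM in TAC and 2.98 CPM in sham), Pparg 1.52-fold higher (9.19 CPM in TAC and 6.02 CPM in sham) and Gpihbp1 1.66-fold higher (40.5 CPM in TAC and 24.4 CPM in sham). Abca1 was lower in TAC there too, at 46.2 CPM in TAC and 103 CPM in sham, and Lpl was at 154 CPM in TAC and 264 CPM in sham. Abcg1, higher in TAC macrophages, was near equal there, at 42.7 CPM in TAC and 41.6 CPM in sham. Its ratio was 1.02 (0.934 to 1.12). Barcodes of no class held 38.2% of kept Abcg1 UMIs in TAC and 48.7% in sham. The cell types among these barcodes were not resolved.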

How the results depend on the processing

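No paired analysis was possible because each group is 1 library. Over 13 alternatives per class, 327 member ratios were recomputed, of which 235 moved by less than their counting interval, 86 moved by more and 6 that were past 1.5-fold turned direction; the cause was not tested. Another 21 values of ratios under 1.5-fold lay on the other side of 0. With a mitochondrial limit of 5%, which left 57 sham macrophage, 8 sham fibroblast and 2 sham endothelial barcodes, Abcg1 turned to log2 -0.026 and Pparg to -0.81 in macrophages, and Abcg1 to -0.33 and Apoe to 1.45 in endothelial barcodes. Pparg turned to -0.13 in macrophages with divisions weighted alike, and Cd36 to -1.02 in fibroblasts with no limits on other classes. Members higher in macrophages numbered 1 with the 5% limit. Members higher in fibroblasts numbered 2 with the 5% limit or no minimum of UMIs, and 0 with limits halved, no limits, thinning, the deepest 10% left out, or 5 to 10% mitochondrial UMIs in both libraries; members lower there numbered 7 with no limits. Members higher in endothelial barcodes numbered 2 with a limit of 25% or thinning. Members lower there numbered 2 with the 25% limit, 3 with no limits, and 0 with limits halved, thinning, 5 to 10% mitochondrial UMIs or divisions weighted alike. Lpl in fibroblast and endothelial barcodes and Abca1 and Pltp in macrophages stayed past 1.5-fold in all 13. Of 30 gene and class pairs, 6 had thinned shares with intervals apart. The 1 library per condition and small classes, such as 56 sham endothelial barcodes, limit precision.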
